A study of Mus musculus with 12 samples.

Results

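The genes described here are 36 members of the antioxidant defence of the liver, followed in the livers of mice with and without the cytochrome P450 Cyp2e1. They were chosen by symbol: the transcription factor Nrf2 (gene Nfe2l2) and its inhibitor Keap1, and enzymes of glutathione, thioredoxin, peroxiredoxin, superoxide, quinone, carbonyl and pentose phosphate metabolism, with 2 metallothioneins. All 36 were found among the 56748 genes of the deposited table, and 35 had enough counts to be tested. Poly(A) RNA from whole liver was sequenced in 12 libraries, 3 biological replicates in each of 4 groups: male knockout, male wild type, female knockout and female wild type. Knockout mice were of the line 129/Sv-Cyp2e1tm1Gonz/J, which carries a targeted Cyp2e1 allele, and wild type mice were of the inbred line 129S1/SvImJ. All mice were 16 weeks old, were kept on normal chow in co-housed cages, and had no other labelled treatment. Each genotype is 1 line, so that a difference between genotypes can also be a difference between the 2 lines.

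Nrf2 is held in the cytoplasm and marked for degradation by Keap1. Electrophiles and oxidants modify cysteines of Keap1, and Nrf2 then enters the nucleus, pairs with a small Maf protein and binds antioxidant response elements of genes that make glutathione, reduce thioredoxin and detoxify quinones. The enzymes that these genes encode work in relays. Superoxide dismutases turn superoxide into hydrogen peroxide, which catalase, glutathione peroxidases and peroxiredoxins then reduce, while glutathione reductase and thioredoxin reductases restore the reducing partners with NADPH from the pentose phosphate pathway. Cyp2e1 oxidises ethanol, acetaminophen and other small molecules in hepatocytes, and is known to release reactive oxygen species as it does so.

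Library totals ran from 15167730 to 25082532 counts, and 14003 genes were tested. Levels are counts scaled to the normalised library size (CPM), given in the order of replicates 1, 2 and 3. Cyp2e1 stood at 318 to 403 CPM in knockout males, against 10374 to 11480 CPM in wild type males, and at 230 to 323 CPM in knockout females, against 6213 to 7076 CPM in wild type females. Gene length bore on the level differently from library to library. For each library a line was fitted through 9363 well-measured genes, relating log2 gene length to the departure of the gene's log2 CPM from its 12-library mean, and its gradient is called the length slope here. It was 0.03 ± 0.17 in knockout males and -0.02 ± 0.13 in wild type males, and 0.19 ± 0.10 in knockout females against -0.19 ± 0.04 in wild type females (log2 units per doubling of length, SD, n = 3 each). In males the groups overlapped in it, and in females every knockout library lay above every wild type library, so that genotype and length slope cannot be told apart in females.

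As a group the 36 genes are abundant. Together they took 9740 ± 494 CPM in knockout females, against 15592 ± 917 CPM in wild type females, and 13760 ± 2038 CPM in knockout males, against 14704 ± 2173 CPM in wild type males (SD, n = 3 each). Levels of different genes were compared per length, in TPM (transcript counts scaled by gene length), averaged over the 12 libraries. On that scale the microsomal glutathione transferase Mgst1 (3310 TPM) and catalase (2228 TPM) led, followed by the peroxiredoxin Prdx1 (959 TPM) and the glutathione peroxidases Gpx1 (611 TPM) and Gpx4 (565 TPM). Nrf2 itself (22.9 TPM) and Keap1 (21.3 TPM) were far below them, as were Nqo1 (13.8 TPM), G6pdx (2.43 TPM) and Cbr3 (1.35 TPM). The cystine transporter gene Slc7a11 had 5 counts in all 12 libraries together and was not tested.

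The promoters of these genes were searched for the core of the antioxidant response element, TGACNNNGC on either strand, in RefSeq windows from 250 bases before to 50 bases after each start (GRCm38.p6, the reference genome and not the 129 lines of this study). Windows were found for 33 of the 36 members, all but Gclc, Gsr and Prdx6. The core was found in 10 of 40 member windows (25%), which belong to 10 members, and in 12.4% of 32851 windows of all genes. Those of Prdx1, Mgst1 and Sod1 are shown because these 3 genes fell in knockout females, and those of Gclm, Txnrd1 and G6pdx because these 3 genes, with the same core, did not pass the test there. Capitals mark the core, which on the strand shown here reads as its reverse complement in all 6.
Prdx1 (chr4:116685450-116685490, plus strand): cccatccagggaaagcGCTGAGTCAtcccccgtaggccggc
Mgst1 (chr6:138140455-138140495, plus strand): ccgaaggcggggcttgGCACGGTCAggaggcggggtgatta
Sod1 (chr16:90220690-90220730, plus strand): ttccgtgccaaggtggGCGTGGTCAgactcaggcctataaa
Gclm (chr3:122245407-122245447, plus strand): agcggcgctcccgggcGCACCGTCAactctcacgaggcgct
Txnrd1 (chr10:82859098-82859138, plus strand): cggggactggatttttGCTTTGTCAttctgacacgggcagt
G6pdx (chrX:74428913-74428953, minus strand): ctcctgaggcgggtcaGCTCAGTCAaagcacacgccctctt
The other members with a match were Nfe2l2, Srxn1, Pgd and Mt2, which did not pass the test in females either. In Gclm the core overlaps a match to the metal response element. The windows of Nqo1 and Cbr1 hold no match, which says only that these letters are not in those windows. A match is a description of the sequence, and binding was not measured.

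The first comparison set knockout livers against wild type livers within each sex. In females many enzymes that reduce peroxides fell: all 6 peroxiredoxins, both glutathione peroxidases and the microsomal transferases Mgst1 and Mgst3, with cytosolic thioredoxin and the copper-zinc superoxide dismutase. Catalase, the second most abundant member, did not pass. The quinone reductase Nqo1 and the carbonyl reductase Cbr1 fell too, and the growth inhibitor gene Osgin1 rose. In males none of the 35 genes passed the test. In females 15 members were called at an adjusted p under 0.05 (edgeR's quasi-likelihood test, Benjamini-Hochberg adjustment over all 14003 genes), 14 lower and 1 higher. Of all genes tested 36.5% were called in females, 17.7% higher and 18.8% lower. In males 0 of 35 were called, against 0.0571% of all genes, with 1 member at an unadjusted p under 0.05 and 0 called by DESeq2. The median log2 fold change of the members was -0.27 in females, where that of all genes was 0.05, and -0.11 in males, where that of all genes was -0.003. In bulk liver, fewer cells of a type and less RNA per cell cannot be told apart.

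**Figure D1:**
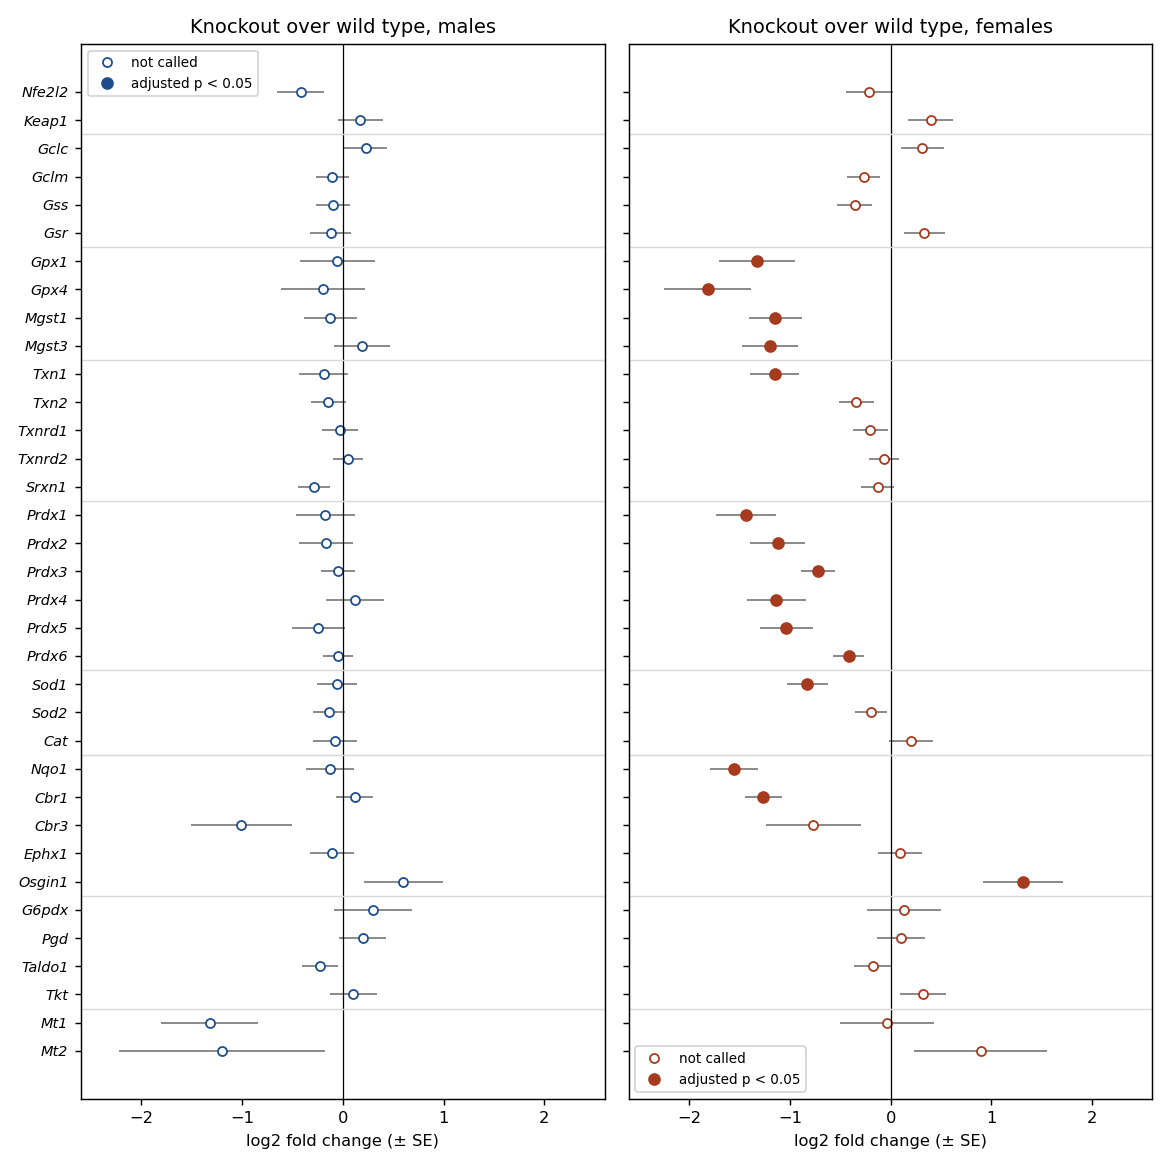
Log2 fold change of knockout over wild type (± SE) for the 35 tested members in males (left) and females (right), grouped by role from top to bottom, with filled points for an adjusted p under 0.05. In females 14 filled points lie below 0 and Osgin1 lies above it, and in males every point is open.

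Whether the female members passed the adjusted threshold depended on single libraries, as it did for all genes. Of all genes 5116 were called with every library, 4 without knockout replicate 2 and 5 without wild type replicate 2. Without knockout replicate 2 none of the 15 was called, and likewise without wild type replicate 2, while 14 members had an unadjusted p under 0.05 in each of these fits. In the 10 other fits with 1 library left out, 13 to 15 members were called. The 14 lower members were short: their median length was 2059.5 bases, against 3781 bases for the 20 that were not called and 4059 bases for all genes tested. With the length slope added as a covariate none of these 15 was called, and 13 of 15 had the same sign, Gpx1 (0.10) and Prdx4 (0.047) being above 0. With the length trend removed from each library 14 of the 15 were still called, Prdx3 being the exception (-0.21, adjusted p = 0.288).

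Among the regulators, neither Nrf2 nor Keap1 passed the test. Nfe2l2 (chromosome 2, 75505857 to 75534985, mm39) had 39.4, 41.2 and 39.5 CPM in knockout females, against 40.4, 44.8 and 53.8 CPM in wild type females (log2 fold change -0.21 ± 0.23, adjusted p = 0.485). In males it had 30.7, 35.3 and 28.5 CPM in the knockout, against 44.6, 26.4 and 55.2 CPM in the wild type (-0.42 ± 0.23, adjusted p = 1.00). The groups overlapped in both sexes. Keap1 (chromosome 9, 21141026 to 21150657) had 48.2, 51.9 and 60.6 CPM in knockout females, against 46.4, 39.3 and 36.3 CPM in wild type females (0.40 ± 0.22, adjusted p = 0.168). Every knockout female lay above every wild type female in Keap1, though the gap between the closest libraries was small beside the spread within each group. In males Keap1 had 46.8, 31.5 and 53.1 CPM in the knockout, against 38.1, 47.8 and 30.8 CPM in the wild type, and the groups overlapped.

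The genes that make and recycle glutathione did not pass the test in either sex. Gclc, the catalytic subunit of glutamate-cysteine ligase, which sets the rate of glutathione synthesis, had 120, 206 and 170 CPM in knockout females, against 134, 129 and 136 CPM in wild type females (0.32 ± 0.21, adjusted p = 0.256). The knockout females spread on both sides of the wild type females. Gclm, its modifier subunit, had 188, 245 and 241 CPM in knockout females, against 269, 262 and 281 CPM in wild type females (-0.27 ± 0.17, adjusted p = 0.212). All 3 knockout libraries lay below the wild type libraries in Gclm, by a difference that did not pass. In males Gclc had 187, 174 and 189 CPM in the knockout, against 202, 132 and 136 CPM in the wild type, and Gclm had 288, 319 and 255 CPM in the knockout, against 309, 279 and 340 CPM in the wild type. Both overlapped between the male groups. Glutathione synthetase Gss averaged 87.1 ± 15.1 CPM in knockout females, against 111 ± 3.96 CPM in wild type females (adjusted p = 0.118). Its gene overlaps Acss2 on the other strand over 22544 bases, and no source used here gives the strand setting of the counts, so its level is uncertain. Glutathione reductase Gsr averaged 42.9 ± 9.01 CPM in knockout females and 34.0 ± 2.76 CPM in wild type females (adjusted p = 0.209).

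All 4 glutathione peroxidases and microsomal transferases were called lower in knockout females, as were 18.8% of all genes. With the length slope as a covariate none of the 4 was called. Gpx4, which reduces lipid hydroperoxides in membranes, had 311, 163 and 196 CPM in knockout females, against 611, 875 and 873 CPM in wild type females. The groups were far apart, with a log2 fold change of -1.82 ± 0.43 (adjusted p = 0.0142), the widest fall of the 35 members. In males Gpx4 had 296, 711 and 254 CPM in the knockout, against 406, 278 and 757 CPM in the wild type (-0.19 ± 0.42, adjusted p = 1.00). A single library of each male group, knockout replicate 2 and wild type replicate 3, stood at the level of the wild type females. The processed pseudogene Gpx4-ps2 held 18.9% to 19.5% as many counts as Gpx4 in each of the 4 groups, so the split of reads between the 2 is uncertain. Gpx1, the abundant cytosolic peroxidase, averaged 267 ± 105 CPM in knockout females, against 670 ± 214 CPM in wild type females (-1.33 ± 0.38, adjusted p = 0.0200), and 376 ± 179 CPM in knockout males, against 391 ± 143 CPM in wild type males.

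Mgst1 and Mgst3 encode membrane enzymes that conjugate or reduce lipophilic substrates with glutathione. Mgst1 had 1844, 1450 and 1759 CPM in knockout females, against 3377, 3724 and 4072 CPM in wild type females (-1.14 ± 0.26, adjusted p = 0.0142). Every knockout female lay well below every wild type female. In males Mgst1 had 3321, 4817 and 2406 CPM in the knockout, against 3931, 2724 and 4832 CPM in the wild type, with full overlap. Mgst3 had 40.4, 27.1 and 31.7 CPM in knockout females, against 76.6, 74.9 and 75.4 CPM in wild type females (-1.19 ± 0.28, adjusted p = 0.0142). The wild type females were nearly alike in Mgst3, and the knockout females lay well under them. In males it was low in both genotypes, at 15.8, 22.9 and 9.23 CPM in the knockout, against 17.3, 11.3 and 13.1 CPM in the wild type.

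In the thioredoxin system 1 of 5 members fell, cytosolic thioredoxin Txn1, which passes electrons to peroxiredoxins. It had 193, 144 and 169 CPM in knockout females, against 331, 390 and 402 CPM in wild type females (-1.15 ± 0.25, adjusted p = 0.0140). Male livers had 224, 354 and 193 CPM in the knockout, against 288, 224 and 367 CPM in the wild type (-0.19 ± 0.24, adjusted p = 1.00). The female groups were apart and the male groups overlapped. Txnrd1, the reductase of cytosolic thioredoxin and a classical Nrf2 target, had 82.2, 103 and 106 CPM in knockout females, against 127, 103 and 104 CPM in wild type females (-0.20 ± 0.18, adjusted p = 0.380). Its male levels were 115, 101 and 141 CPM in the knockout, against 118, 132 and 115 CPM in the wild type. Neither sex parted the genotypes in Txnrd1. Sulfiredoxin Srxn1, which repairs over-oxidised peroxiredoxins, had 27.9, 26.8 and 28.4 CPM in knockout females, against 31.2, 32.5 and 27.1 CPM in wild type females (-0.13 ± 0.16, adjusted p = 0.546). In males Srxn1 had 36.1, 28.4 and 33.3 CPM in the knockout, against 40.9, 34.8 and 43.8 CPM in the wild type (-0.29 ± 0.16, adjusted p = 1.00). The male groups overlapped by a single pair of libraries. The mitochondrial partners Txn2 (-0.34 ± 0.17, adjusted p = 0.138) and Txnrd2 (-0.07 ± 0.15, adjusted p = 0.737) did not pass in females.

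The peroxiredoxins are thiol peroxidases that most often draw on thioredoxin. In knockout females 6 of 6 were called lower, as were 18.8% of all genes. With the length slope as a covariate none of the 6 was called. Prdx1, the cytosolic enzyme and an Nrf2 target, had 1012, 705 and 842 CPM in knockout females, against 1932, 2715 and 2271 CPM in wild type females (-1.44 ± 0.30, adjusted p = 0.0139). In males it had 988, 1657 and 793 CPM in the knockout, against 1244, 903 and 1730 CPM in the wild type (-0.17 ± 0.29, adjusted p = 1.00). The wild type females had the highest levels of all 12 livers, and the knockout females stood near the lower male libraries.

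Prdx2, also cytosolic and abundant in red cells, had 133, 98.9 and 122 CPM in knockout females, against 226, 283 and 261 CPM in wild type females (-1.12 ± 0.27, adjusted p = 0.0143), and in males 157, 275 and 135 CPM in the knockout, against 196, 164 and 276 CPM in the wild type. Mitochondrial Prdx3 had 71.2, 67.1 and 80.3 CPM in knockout females, against 105, 130 and 125 CPM in wild type females (-0.72 ± 0.17, adjusted p = 0.0142), and in males 103, 111 and 83.6 CPM in the knockout, against 98.0, 93.8 and 115 CPM in the wild type. Prdx5, found in mitochondria, peroxisomes and cytosol, had 252, 162 and 212 CPM in knockout females, against 406, 481 and 399 CPM in wild type females (-1.04 ± 0.26, adjusted p = 0.0150), and in males 302, 488 and 294 CPM in the knockout, against 361, 338 and 583 CPM in the wild type. All 3 genes separated the female groups and overlapped in males, and the share of all genes that did so was not computed. By edgeR's test 48.5% of all genes had an unadjusted p under 0.05 in females, and 4.84% in males. Prdx4, of the endoplasmic reticulum, averaged 115 ± 14.6 CPM in knockout females, against 253 ± 36 CPM in wild type females (-1.14 ± 0.29, adjusted p = 0.0153). Prdx6, which relies on glutathione, had the narrowest fall, 554 ± 48.7 CPM in knockout females, against 740 ± 42.6 CPM in wild type females (-0.42 ± 0.15, adjusted p = 0.0453). Prdx6 was called in 1 of 12 fits with a library left out, and per length its female means were 305 TPM in the knockout and 303 TPM in the wild type. Prdx2 overlaps Junb and Prdx5 overlaps Trmt112 on the other strand, by 351 and 409 bases.

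**Figure D2:**
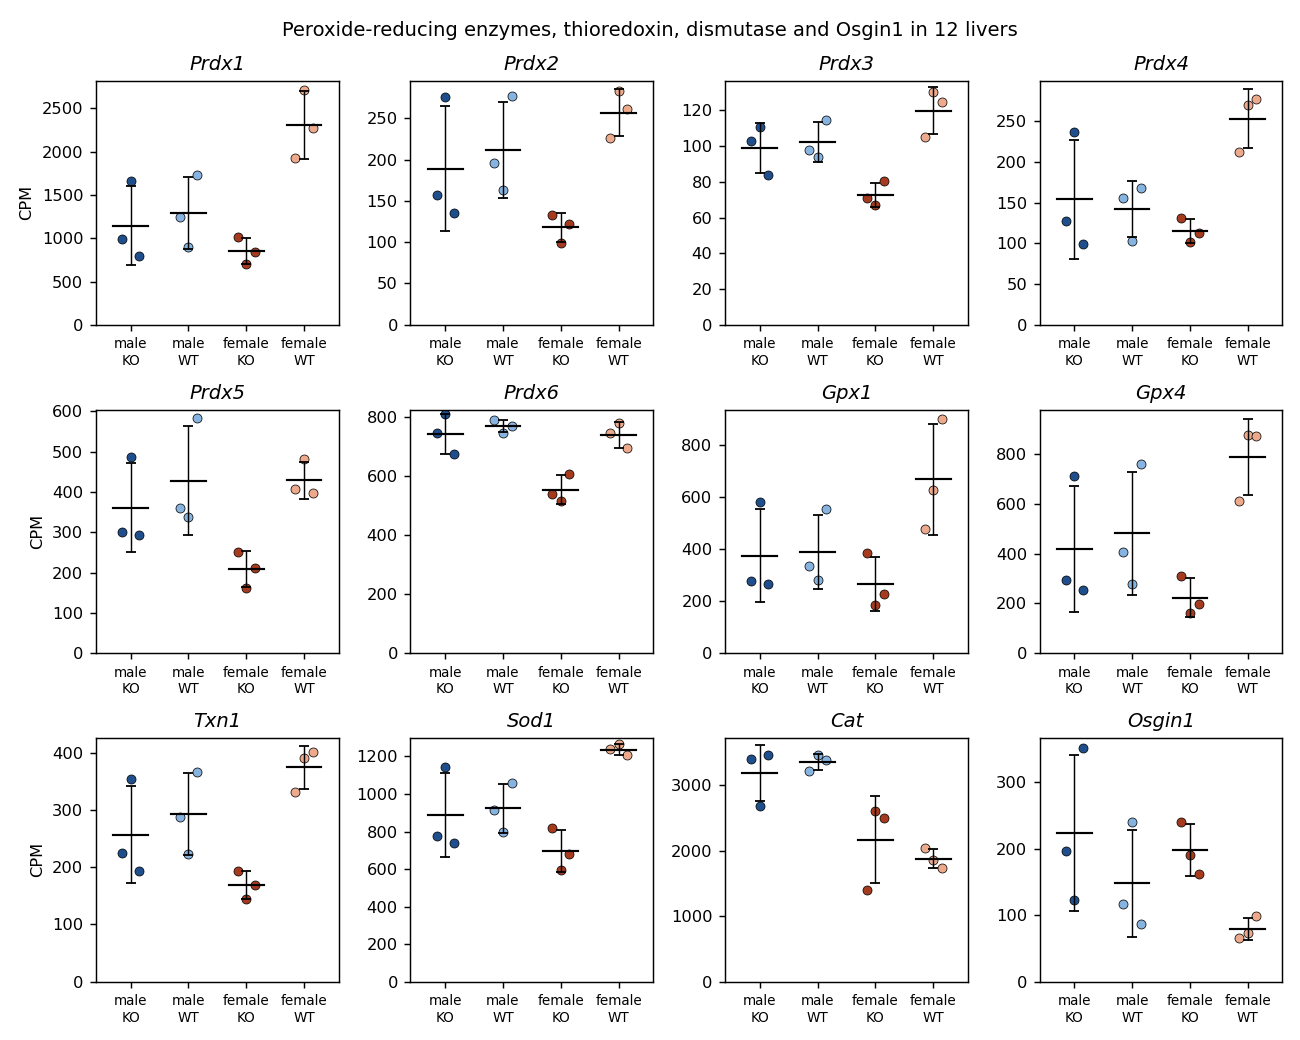
CPM of 12 members in each liver, with points for single libraries and lines for the mean ± SD of 3 libraries, in male knockout, male wild type, female knockout and female wild type livers. For Prdx1 the knockout females lie between 705 and 1012 CPM, below all wild type females (1932 to 2715 CPM), while the male groups overlap, and Osgin1 runs the other way in females.

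Of the superoxide and peroxide enzymes outside these families, the cytosolic dismutase Sod1 fell in knockout females and mitochondrial Sod2 and catalase did not pass. Sod1 had 817, 596 and 681 CPM in knockout females, against 1238, 1264 and 1207 CPM in wild type females (-0.83 ± 0.20, adjusted p = 0.0146). The male levels were 777, 1144 and 739 CPM in the knockout, against 913, 799 and 1057 CPM in the wild type. The wild type females were close together and above all knockout females, while the males overlapped. Sod2 averaged 185 ± 16.5 CPM in knockout females, against 211 ± 34.4 CPM in wild type females (adjusted p = 0.351). Catalase, the peroxisomal enzyme, averaged 2166 ± 663 CPM in knockout females and 1877 ± 151 CPM in wild type females (0.21 ± 0.22, adjusted p = 0.471), and a single knockout female, at 1404 CPM, lay below every wild type female.

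Nqo1 and Cbr1 had the smallest p-values of the members in females. Nqo1, which reduces quinones by 2 electrons and is a classical read-out of Nrf2 activity, had 7.03, 7.13 and 7.74 CPM in knockout females, against 21.6, 23.7 and 19.0 CPM in wild type females (-1.56 ± 0.24, adjusted p = 0.0130). In males it had 5.83, 6.30 and 4.85 CPM in the knockout, against 5.95, 4.14 and 8.43 CPM in the wild type (-0.13 ± 0.24, adjusted p = 1.00). Knockout females had Nqo1 levels close to those of the males, and wild type females stood alone. Cbr1, which reduces carbonyls of quinones, prostaglandins and drugs, had 128, 111 and 116 CPM in knockout females, against 301, 298 and 251 CPM in wild type females (-1.26 ± 0.19, adjusted p = 0.0101). In males it had 68.0, 102 and 66.3 CPM in the knockout, against 71.9, 73.9 and 71.8 CPM in the wild type (0.12 ± 0.18, adjusted p = 1.00). Among males the libraries with a length slope below 0 had the highest Gpx4, Prdx1 and Txn1. Cbr1 was highest in knockout replicate 2, 1 of these libraries, and was within 71.8 to 73.9 CPM in the wild type males. With the length slope as a covariate the female fold changes were -0.94 for Nqo1 (adjusted p = 0.323) and -0.85 for Cbr1 (adjusted p = 0.194), and for Gpx4 -0.01 (adjusted p = 0.995). With the length trend removed they were -1.08 for Nqo1 (adjusted p = 0.0121), -1.08 for Cbr1 (adjusted p = 0.00887) and -1.42 for Gpx4 (adjusted p = 0.0146). Genotype and length slope cannot be told apart in females, and the part of the slope in these differences was not tested beyond these fits.

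**Figure D3:**
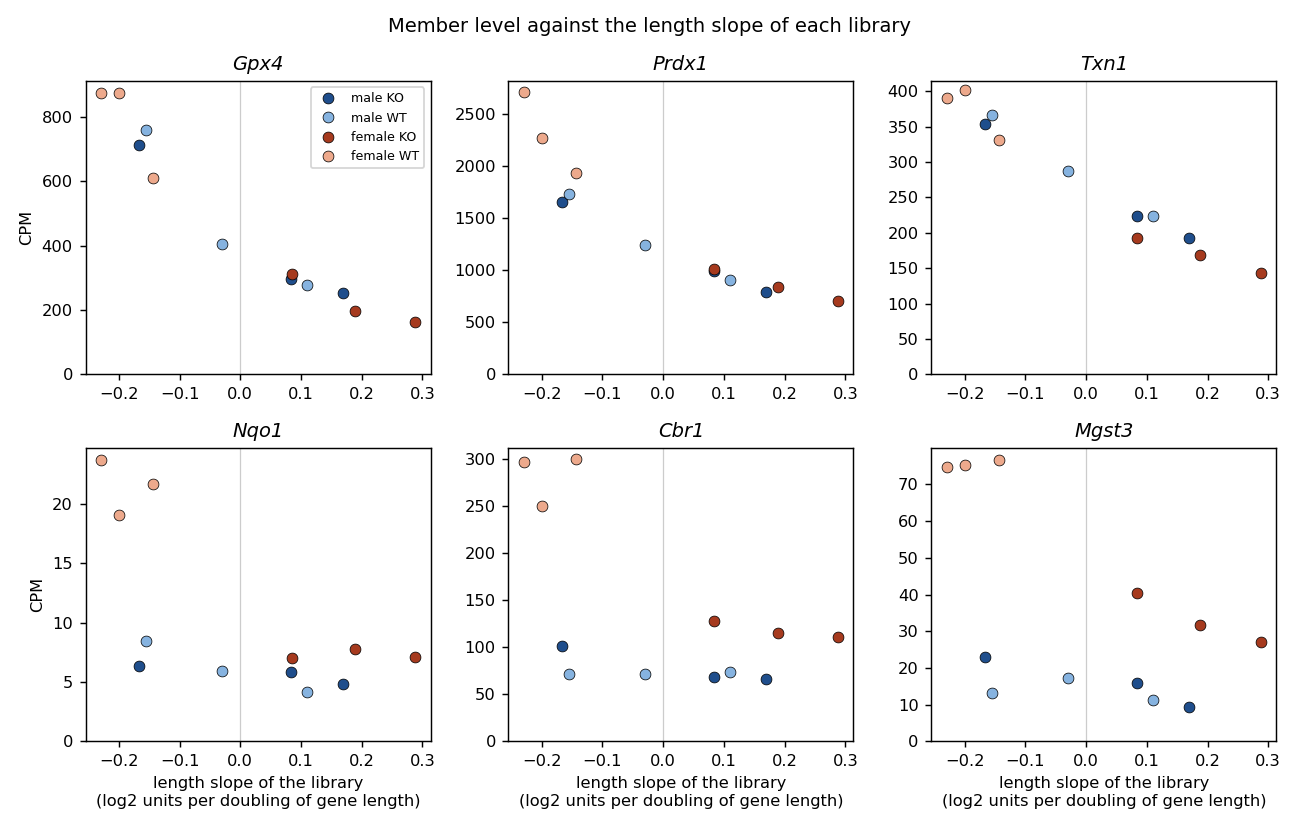
CPM of 6 members in each of 12 libraries against the library's length slope (log2 units per doubling of gene length), with dark points for knockout and light points for wild type, blue for males and red for females. The points of Gpx4, Prdx1 and Txn1 fall along the slope in both sexes, and for Nqo1, Cbr1 and Mgst3 the males stay low at every slope. Genotype and length slope cannot be told apart in females.

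Osgin1, an oxidative stress response gene that slows cell growth, was the single member that rose. It had 239, 191 and 162 CPM in knockout females, against 66.4, 73.1 and 98.7 CPM in wild type females (1.31 ± 0.40, adjusted p = 0.0238). Male levels were 196, 123 and 352 CPM in the knockout, against 117, 239 and 87.0 CPM in the wild type (0.60 ± 0.39, adjusted p = 1.00). The female groups were apart, and with the length slope as a covariate the female value was 0.09 (adjusted p = 0.972). With the length trend removed the female value was 1.46 (adjusted p = 0.0224). Epoxide hydrolase Ephx1, which opens epoxides of drugs and toxins, had 247, 243 and 240 CPM in knockout females, against 282, 199 and 202 CPM in wild type females (0.09 ± 0.22, adjusted p = 0.750). In males Ephx1 had 467, 297 and 531 CPM in the knockout, against 470, 506 and 421 CPM in the wild type, and genotypes overlapped in both sexes. Cbr3 was at or under 1.61 CPM in every library and did not pass (-0.77 ± 0.47 in females, adjusted p = 0.211). Of the pentose phosphate enzymes, which supply NADPH, 0 of 4 passed in either sex, with female fold changes of -0.18 (Taldo1) to 0.32 (Tkt). G6pdx, the entry enzyme, averaged 4.34 ± 0.28 CPM in knockout females and 3.95 ± 1.17 CPM in wild type females, and shares 19712 bases with Ikbkg on the other strand, so that its reads may be split.

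The metallothioneins, small cysteine-rich proteins that bind zinc and copper and scavenge oxidants, did not pass the test of genotype. Mt1 had 15.3, 22.5 and 31.8 CPM in knockout males, against 51.8, 78.0 and 44.8 CPM in wild type males. Every knockout male lay below every wild type male, with a log2 fold change of -1.32 ± 0.48 (unadjusted p = 0.0160, adjusted p = 0.863), and Mt1 was the 1 member with an unadjusted p under 0.05 in males. Without the filter on low counts it was called (-1.33, adjusted p = 0.000306), and the adjusted p of its other alternatives ran from 0.381 to 1.00. In females Mt1 had 954, 329 and 242 CPM in the knockout, against 295, 557 and 708 CPM in the wild type (-0.03 ± 0.47, adjusted p = 0.960), with wide spread in both groups. Mt2 had 7.03, 2.08 and 2.02 CPM in knockout females, against 1.28, 2.81 and 1.93 CPM in wild type females (0.89 ± 0.66, adjusted p = 0.293). A single knockout female, replicate 1, was high in both Mt1 and Mt2, and without it the female value was -0.86 for Mt1 and 0.05 for Mt2, neither of them called. In males Mt2 had 1, 8 and 0 counts in the knockout, against 10, 3 and 10 counts in the wild type, too few to show a change at this depth.

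Over both sexes together, the mean of the male and female effects, 10 members were called: Gpx4, Mgst1, Txn1, Prdx1, Prdx2, Prdx3, Prdx5, Nqo1 and Cbr1 lower, and Osgin1 higher. Of all genes tested 15.1% were called in this comparison, 7.78% higher and 7.29% lower. The log2 fold changes of the 9 lower members lay between -1.01 (Gpx4, adjusted p = 0.0436) and -0.38 (Prdx3, adjusted p = 0.0484), with Nqo1 at -0.84 ± 0.17 (adjusted p = 0.0255) and Cbr1 at -0.57 ± 0.13 (adjusted p = 0.0308). Osgin1 was higher by 0.96 ± 0.28 (adjusted p = 0.0421). None of the 10 passed in males, and with the length slope as a covariate none was called, with Gpx4 at 0.0097. With the replicate number added as a block 0 members were called. Whether members passed in this mean also depended on single libraries. When 1 library was left out, 0 members were called without male knockout replicate 1 or 3, male wild type replicate 1 or 3, female knockout replicate 2, or female wild type replicate 1 or 2. Without female knockout replicate 1 or 3 the count was 2 and 1, without female wild type replicate 3 it was 2, without male knockout replicate 2 it was 15 and without male wild type replicate 2 it was 16.

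The difference between the sexes in the knockout effect was tested as an interaction. It was called for 0 of 35 members, and for 0% of all genes, in edgeR's test, while 12 members had an unadjusted p under 0.05, as did 22.5% of all genes. All 12 had a more positive effect in males than in females. The smallest p was that of Cbr1 (male minus female effect 1.38 ± 0.26, unadjusted p = 0.000135, adjusted p = 0.204), followed by Nqo1 (1.43 ± 0.34, unadjusted p = 0.000890, adjusted p = 0.204) and Mgst3 (1.38 ± 0.40, unadjusted p = 0.00387, adjusted p = 0.204). DESeq2, which gave an adjusted p to 1244 genes and called 17.5% of them, called 7 members (Gpx4, Mgst1, Txn1, Prdx1, Prdx4, Sod1 and Cbr1), and edgeR without the filter on low counts called 9 and 5.67% of all genes. A knockout effect in females and none called in males therefore does not show by this test that the sexes differ.

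The second comparison set males against females within each genotype. Metallothionein Mt1 and the transferase Mgst3 were lower in males in both genotypes, and the epoxide hydrolase Ephx1 was higher in males in both. The sex bias of Nqo1 and Cbr1 passed the test in wild type mice only, though that of Cbr1 in knockout mice passed in some alternatives. The interaction above did not call this difference between genotypes. In knockout mice 5 members were called, 2 higher and 3 lower in males, against 5.4% of all genes called, 2.95% higher and 2.45% lower. In wild type mice 6 members were called, 2 higher and 4 lower in males, against 4.49% of all genes, 2.1% higher and 2.39% lower. The 12 libraries fell into separate ranges by sex for Mt1, with at most 78.0 CPM in males and at least 242 CPM in females.

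Mt1 had the widest sex difference. Its mean was 23.2 ± 8.30 CPM in knockout males, against 508 ± 388 CPM in knockout females (-4.45 ± 0.54, adjusted p = 0.000193), and 58.2 ± 17.5 CPM in wild type males, against 520 ± 209 CPM in wild type females (-3.16 ± 0.51, adjusted p = 0.00199). Both calls held in all 12 fits with a library left out and in all 7 other alternatives. Mt2 had 9 counts over the 3 knockout males, against 258 over the 3 knockout females (-4.33 ± 0.87, adjusted p = 0.00989), and 23 over wild type males, against 101 over wild type females (-2.24 ± 0.78, adjusted p = 0.129). Mt1 and Mt2 are neighbours on chromosome 8 (94905710 to 94906955 and 94899292 to 94900196 in mm39, both on the plus strand). Their upstream stretches are shown because the 2 genes had the largest sex differences of the members in knockout mice. In wild type mice Mgst3 exceeded Mt2. Capitals mark matches to the metal response element, searched as TGCACNC or TGCGCNC on either strand.
Mt1 (chr8:94178839-94179088, GRCm38.p6, plus strand): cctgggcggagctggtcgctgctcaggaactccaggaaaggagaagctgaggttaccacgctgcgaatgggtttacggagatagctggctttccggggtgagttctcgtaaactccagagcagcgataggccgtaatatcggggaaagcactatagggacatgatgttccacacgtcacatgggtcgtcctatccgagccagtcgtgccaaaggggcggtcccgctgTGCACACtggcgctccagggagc
Mt2 (chr8:94172368-94172617, GRCm38.p6, plus strand): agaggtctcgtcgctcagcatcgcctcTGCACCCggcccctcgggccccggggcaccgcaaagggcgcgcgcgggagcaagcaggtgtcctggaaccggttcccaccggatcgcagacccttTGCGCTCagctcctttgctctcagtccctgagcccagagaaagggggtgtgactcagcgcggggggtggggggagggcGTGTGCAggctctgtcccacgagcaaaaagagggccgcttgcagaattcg
The stretch of Mt1 holds 1 match and that of Mt2 holds 3, the last of them on the other strand. Both stretches stop just before the start of the gene, while the windows searched run past it. In the part past the start, the window of Mt1 holds further matches at positions 2 to 8 and 20 to 26. That of Mt2 holds a further match there at positions 4 to 10, on the other strand. At least 1 match stands in 25.7% of all promoter windows and in 20.0% of the members' windows, and the share of windows with several matches was not computed. Neither zinc nor binding to the element was measured.

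In wild type mice Cbr1 averaged 72.5 ± 1.18 CPM in males, against 283 ± 28.0 CPM in females (-1.96 ± 0.19, adjusted p = 2e-05). Nqo1 averaged 6.17 ± 2.16 CPM in males, against 21.5 ± 2.35 CPM in females (-1.80 ± 0.24, adjusted p = 0.000423), and Mgst3 13.9 ± 3.04 CPM in males, against 75.6 ± 0.89 CPM in females (-2.44 ± 0.29, adjusted p = 0.000165). These 3 calls held in all 12 fits with a library left out and in all 7 other alternatives, the fit with the length slope among them. In knockout mice Cbr1 (-0.58 ± 0.18, adjusted p = 0.0896) and Nqo1 (-0.37 ± 0.24, adjusted p = 0.367) did not pass. Mgst3 was lower in males there (-1.06 ± 0.28, adjusted p = 0.0457). With a library left out, 3 of 12 fits called Mgst3 and 1 of 12 called Cbr1. Of the 7 other alternatives 4 called Mgst3, 3 called Cbr1 and 0 called Nqo1. With the length slope as a covariate the value was -0.78 for Cbr1 (adjusted p = 0.00501) and -1.50 for Mgst3 (adjusted p = 0.000303). With the length trend removed it was -0.64 for Cbr1 (adjusted p = 0.0304) and -1.39 for Mgst3 (adjusted p = 0.000794).

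Ephx1 averaged 432 ± 121 CPM in knockout males, against 243 ± 3.56 CPM in knockout females (0.83 ± 0.22, adjusted p = 0.0430), and 466 ± 42.6 CPM in wild type males, against 228 ± 46.9 CPM in wild type females (1.03 ± 0.22, adjusted p = 0.0140). The wild type call was kept in 10 of 12 fits with a library left out and the knockout call in 4 of 12. Mgst1 was higher in males among knockout mice only by its call (1.06 ± 0.26, adjusted p = 0.0314, kept in 6 of 12), and in wild type mice its value was 0.04 ± 0.26 (adjusted p = 0.938). Catalase was at the threshold in wild type mice, with 3348 ± 125 CPM in males, against 1877 ± 151 CPM in females (0.83 ± 0.22, adjusted p = 0.04997), and the call was kept in 2 of 12.

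**Figure D4:**
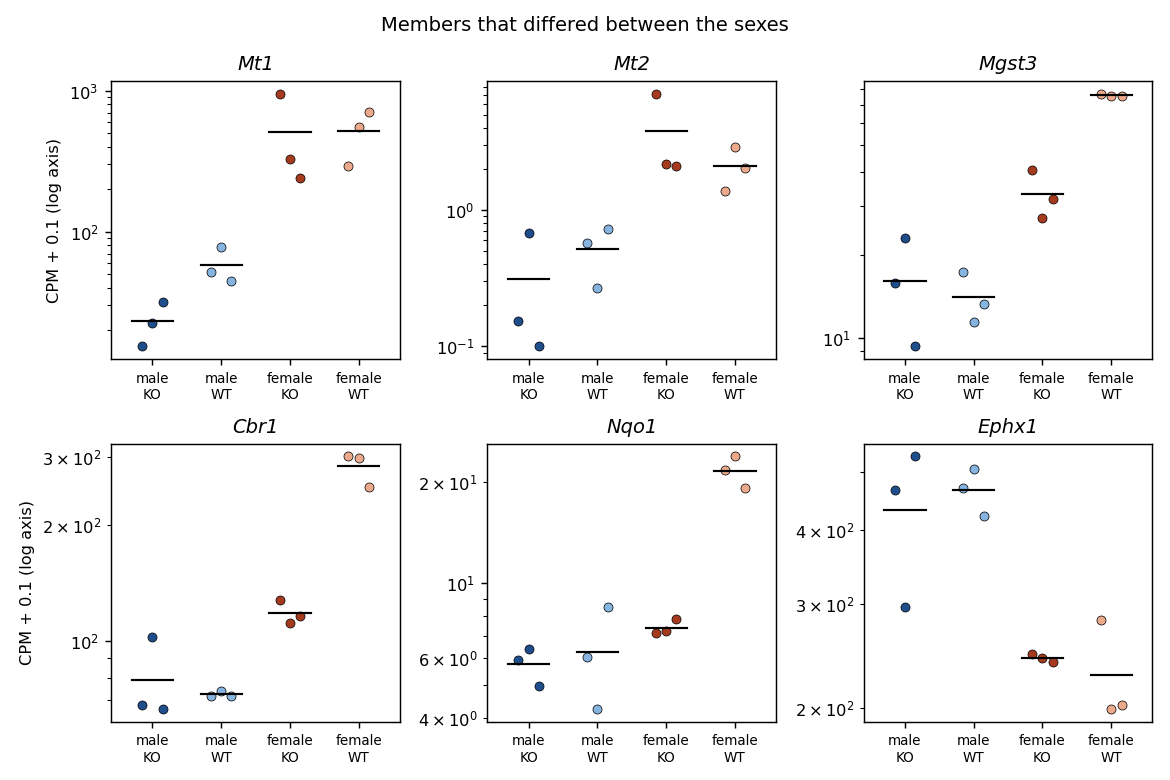
CPM + 0.1 on a log axis for 6 members called between males and females, with points for single libraries and lines for group means, in male knockout, male wild type, female knockout and female wild type livers. Mt1 lies below 100 CPM in every male and above 200 CPM in every female, and Ephx1 runs the other way.

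Other genes of these pathways, taken from lists of known function, were called in both directions in females, and 0 of them were called in males. The shares of the 6 lists called in females ran from 28.6% to 50%, around the 36.5% of all genes (17.7% higher and 18.8% lower), and nothing particular to a list is read from them. The median gene length was 5157 bases for the Nrf2 partners and 6300 bases for zinc and copper handling, the lists with a median fold change above 0. It was 2952.5 to 3770 bases in the other lists. The part of the length slope in these lists was not tested. Of 14 tested partners and regulators of Nrf2, 4 rose and 1 fell in knockout females (35.7% called), with a list median of 0.47 beside 0.05 for all genes. The small Maf partner Mafg averaged 86.8 ± 14.0 CPM in knockout females, against 38.3 ± 10.6 CPM in wild type females (1.18 ± 0.32, adjusted p = 0.0177). The kinase Gsk3b rose too (1.21 ± 0.35, adjusted p = 0.0199), while Rbx1, a subunit of the ligase that Keap1 recruits, fell (-1.22 ± 0.29, adjusted p = 0.0143). Of 22 other Nrf2 targets 4 rose and 5 fell in females (40.9% called), with a median of -0.31. The glutathione transferase Gsta3 averaged 1014 ± 50.3 CPM in knockout females, against 2230 ± 153 CPM in wild type females (-1.14 ± 0.24, adjusted p = 0.0139), and biliverdin reductase Blvrb 107 ± 19.2 CPM in knockout females, against 266 ± 35.6 CPM in wild type females (-1.31 ± 0.26, adjusted p = 0.0139). Gsta1 fell as well, at 0.143 ± 0.038 CPM in knockout females, against 0.907 ± 0.453 CPM in wild type females (-2.63 ± 0.49, adjusted p = 0.0139). These levels are near the floor of the counts, so the size of this fall is uncertain.

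Of 18 other genes of glutathione, cysteine and glutaredoxins 2 rose and 7 fell in knockout females (50% called against 36.5% of all genes, median -0.32). Cystathionine beta-synthase Cbs, which feeds homocysteine towards cysteine, averaged 650 ± 8.73 CPM in knockout females, against 235 ± 60.8 CPM in wild type females (1.47 ± 0.34, adjusted p = 0.0142). The glutaredoxins Glrx (-0.75 ± 0.15, adjusted p = 0.0139) and Glrx3 (-0.996 ± 0.24, adjusted p = 0.0142) fell. Of 21 other peroxide, superoxide and methionine sulfoxide enzymes 1 rose and 8 fell (42.9% called, median -0.25), among them the thioredoxin-like genes Txnl1 (-1.18 ± 0.25, adjusted p = 0.0139) and Txndc17 (-1.06 ± 0.31, adjusted p = 0.0200) and the methionine sulfoxide reductase Msra (-0.64 ± 0.17, adjusted p = 0.0154).

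Of 13 other genes of NADPH supply 1 rose and 4 fell in knockout females (38.5% called against 36.5% of all genes, median -0.50). Isocitrate dehydrogenase Idh1 averaged 342 ± 34.4 CPM in knockout females, against 642 ± 7.37 CPM in wild type females (-0.91 ± 0.19, adjusted p = 0.0139). Rpe of the pentose phosphate pathway fell (-0.97 ± 0.24, adjusted p = 0.0147), and H6pd, which makes NADPH in the endoplasmic reticulum, rose (1.30 ± 0.34, adjusted p = 0.0164). Of 14 genes listed under zinc and copper handling 2 rose and 2 fell (28.6% called, median 0.24). The copper chaperone Atox1 averaged 39.3 ± 4.23 CPM in knockout females, against 111 ± 15.9 CPM in wild type females (-1.50 ± 0.29, adjusted p = 0.0139). The copper pump Atp7b (0.81 ± 0.20, adjusted p = 0.0143) and the Slc30 family transporter Slc30a10 (0.91 ± 0.27, adjusted p = 0.0233) rose.

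Some markers of other liver cells were called in females, where 17.7% of all genes were called higher and 18.8% lower. Markers of sinusoidal endothelium summed to 207 to 275 CPM in knockout females, against 170 to 204 CPM in wild type females, with 3 of 8 markers higher. Cholangiocyte markers summed to 22.4 to 34.1 CPM in knockout females, against 42.3 to 50.1 CPM in wild type females, with 1 of 5 tested higher and 2 lower. Neither list overlapped between the female groups. Kupffer cell and macrophage markers summed to 196 to 233 CPM in knockout females, against 164 to 272 CPM in wild type females (4 of 9 higher), and stellate cell markers to 241 to 285 CPM in knockout females, against 252 to 289 CPM in wild type females (2 of 8 higher and 1 lower). Lymphocyte and neutrophil markers summed to 13.6 to 36.9 CPM in knockout females, against 10.2 to 18.1 CPM in wild type females (2 of 5 tested higher), with the neutrophil marker Ly6g at 0 in every library. Erythroid markers, of interest for Prdx2, summed to 235 to 597 CPM in knockout females, against 441 to 1042 CPM in wild type females, and 0 of 5 tested were called. Of 8 hepatocyte markers Cyp2e1 alone was called, and in males it was the 1 marker of all lists to be called. Median gene length was 6009 bases for the tested endothelial markers and 2195 bases for the cholangiocyte markers. It was 2036 bases for the Kupffer cell and macrophage markers, and 4059 bases for all genes tested. The part of the length slope in the marker differences was not tested, nor was the part of these cell types in the members' differences.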

How the data were processed

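The deposited table holds raw read counts per gene for each library, as the values show (whole numbers, different totals). Per the submitters' processing notes, HISAT2 2.0.5, DESeq2 and the mm39 build were used. No source used here gives the counting program or strand setting. Columns were matched to samples by the library number in the labels. The 36 members and the gene lists were chosen with earlier results of these data known. From the counts, edgeR 4.0.16 (R 4.3.3) kept 14003 genes (filterByExpr on the 4 groups, 99.9% of counts), scaled them by TMM and fitted 1 mean per group to all 12 libraries (glmQLFit and glmQLFTest, 8 residual and 5.22 prior degrees of freedom, biological coefficient of variation 25.9%). P-values were adjusted by Benjamini-Hochberg over all genes tested within each of 6 contrasts, and a gene was called under 0.05. Standard errors were derived from the fold change and its F statistic and are approximate. The prior count for log2 CPM was 2. TPM was computed from counts and gene lengths in the table. The length slope used genes with mean log2 CPM above 2. The scripts were tested on simulated counts in the female knockout contrast only. These counts held no length slope, so that test does not bear on it.

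Values in every library are given for Nfe2l2 and Keap1, members called in the male, both-sexes or sex-difference contrast, the 10 of smallest adjusted p in females, the 4 of smallest adjusted p in each sex contrast, and Nqo1, Gclc, Gclm, Txnrd1, Srxn1, Mt1 and Mt2, and other members by group. From each wider list at most 3 called genes are named. Where groups are said to lie apart or to overlap, the share of all genes of which this holds was not computed. The labels call the replicates biological without naming animals, litters or batches. No 2 replicates agreed within sampling noise (chi-square of their counts 15.6 to 137 per degree of freedom). Alternatives were other size factors, DESeq2 1.42.0, no filter, only the groups compared, a replicate block, the length slope as a covariate, a length trend removed (lowess span 0.3) and each library left out. GC content was not used here, since the reference used here is of another build. In the main fit a p-value sets a difference against the spread between libraries within groups, estimated over the 4 groups. With 1 line per genotype it cannot part genotype from line.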

Additional observations from a re-analysis of the deposited data

How the results depend on the processing

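The male count of members called stayed at 0 and the female count at 13 to 19 under all alternatives except those that follow. With the length slope as a covariate 1 member was called in females (Mt2, 4.40, adjusted p = 0.0387), 0 over both sexes and 8 between males and females of the knockout. There Gpx1 (0.10) and Prdx4 (0.047) turned sign in females and Gpx4 (0.0097) over both sexes. The length trend removed gave 19 female calls, with Gclm, Gss, Txnrd1 and Sod2 lower and Mt2 higher added. Without the filter on low counts 1 member was called in males, 9 for the difference of effects and 11 between the sexes of the wild type. DESeq2 called 7 for the difference of effects and 8 between the sexes of the knockout. Using only the 2 groups compared called 2 of the 5 members between the sexes of the knockout. Leaving out 1 library gave 0 to 15 members in females, 0 in males, 0 to 16 over both sexes, 0 for the difference of effects, 1 to 5 between the sexes of the knockout and 4 to 10 of the wild type. Same-numbered replicates correlated at -0.613 to 0.277 in their deviations. These correlations cannot decide whether the numbers pair the samples, since the labels name no litters or batches. With the replicate block 14 members were called in females, 0 over both sexes and 2 between the sexes of the knockout. Among all genes, 5116 were called in females, 10 with the length slope, 4 without knockout replicate 2, 5 without wild type replicate 2 and 3365 with the block. Over both sexes 2111 became 23 with the block, 21 with the length slope, 3959 by DESeq2 and 3900 without the filter. In males 8 became 34 by DESeq2, 101 without the filter, 18 with the length slope and 1 with only the 2 groups. For the difference of effects 0 became 218 by DESeq2, 1451 without the filter and 3 with the length slope. Between the sexes of the knockout 756 became 1395 by DESeq2 and 1694 without the filter, and in the wild type 629 became 1226, 1700 and, with the block, 415. With 1 library left out these counts of all genes ran from 4 to 5993 in females, 5 to 18 in males, 18 to 5594 over both sexes, 440 to 953 between the sexes of the knockout and 379 to 1124 of the wild type. The cause of each change was not tested. Low counts limit Mt2, Cbr3 and Slc7a11 among the members, and Gsta1 in the wider lists.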
